A study of Mus musculus with 37 samples.

Results

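Complement is a cascade of proteins that marks damaged or foreign surfaces and calls in inflammatory cells. Expression of 9 of its genes was followed in the left ventricle (LV) of mice after cardiac arrest or adrenaline exposure, namely C1qa, C1qb, C1qc, C4b, C3, Cfb, Serping1, C3ar1 and C5ar1. They were taken by symbol from a table of 56748 genes, and all 9 were found. Another 45 complement genes of the same table, grouped by role, were read beside them.

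In the classical pathway the recognition molecule C1q, built from the chains of C1qa, C1qb and C1qc, binds antibody or dying cells and starts the cleavage of C4 and C2. All pathways meet at C3, whose fragment C3a, like C5a from the next step, is read by G protein-coupled receptors on myeloid cells, encoded by C3ar1 and C5ar1. Most circulating complement is made in the liver, whereas C1q is made mainly by tissue macrophages, including those of the heart.

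C57BL/6J mice of both sexes, aged 8 to 10 weeks, fell into 9 groups. Naïve mice were anesthetized with isoflurane only, without intubation or injection (n = 5). Adr mice, which the sample labels call sham, were ventilated, injected with saline into the LV and then given adrenaline by the same route, and were studied 0.5, 1, 3 or 7 days later (n = 4 each). Arrest mice were ventilated and injected with potassium chloride, stayed in asystole for 8 min, and were resuscitated with the same adrenaline and chest compressions before study at the same times (n = 4 each). Anesthesia was thus common to all 37 mice, and ventilation, needle injury and adrenaline to both the Adr and the Arrest mice. Naïve hearts were taken after the baseline imaging, whereas Adr and Arrest mice first recovered and were imaged again. Recovery time and repeat imaging thus differed between Naïve and every other group. The apex was left out because of the local needle injury, and hearts were flushed before RNA was taken.

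The RNA-seq libraries held between 13.2 M and 30.2 M fragments counted on genes, M standing for the SI prefix mega. Levels are given in FPKM as deposited, fragments normalized to gene length and to a scaling factor of each library. The median ratio of a library's genes to their mean over libraries was 1.013 in every library. The scaling was thus not by the fragments counted alone. The unit allows levels of different genes to be compared. The tissue carried its expected markers, with 6 cardiomyocyte genes summing to 6546 FPKM or more in 36 libraries. Adr 3 d replicate 3 stood apart from all others. Its cardiomyocyte genes summed to 3158 FPKM, its mitochondrially encoded genes took 9.36% of fragments against 20.8% to 30.9% elsewhere, and its summed markers of macrophages (326 FPKM), monocytes (58.6 FPKM) and fibroblasts (1312 FPKM) exceeded the highest other library (213, 23.1 and 832 FPKM). Tests against Naïve and between groups were therefore run both with all 37 libraries and without that library, whereas mean levels and ranks are given over all 37.

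C1qb [111 FPKM], C1qa [99.8 FPKM], Serping1 [98.4 FPKM] and C3 [82.2 FPKM] had the highest mean levels of the 9 genes over the 37 libraries, followed by C1qc [48.2 FPKM]. C4b [6.62 FPKM] and the receptors C5ar1 [5.69 FPKM] and C3ar1 [3.81 FPKM] were lower, and Cfb [0.115 FPKM] was near the limit of detection. Ranked among all 56748 genes, C1qb was number 382 and C1qa number 418. Liver transcripts were close to absent, with 5 hepatocyte markers including Alb summing to at most 2.76 FPKM in any library.

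**Figure D1:**
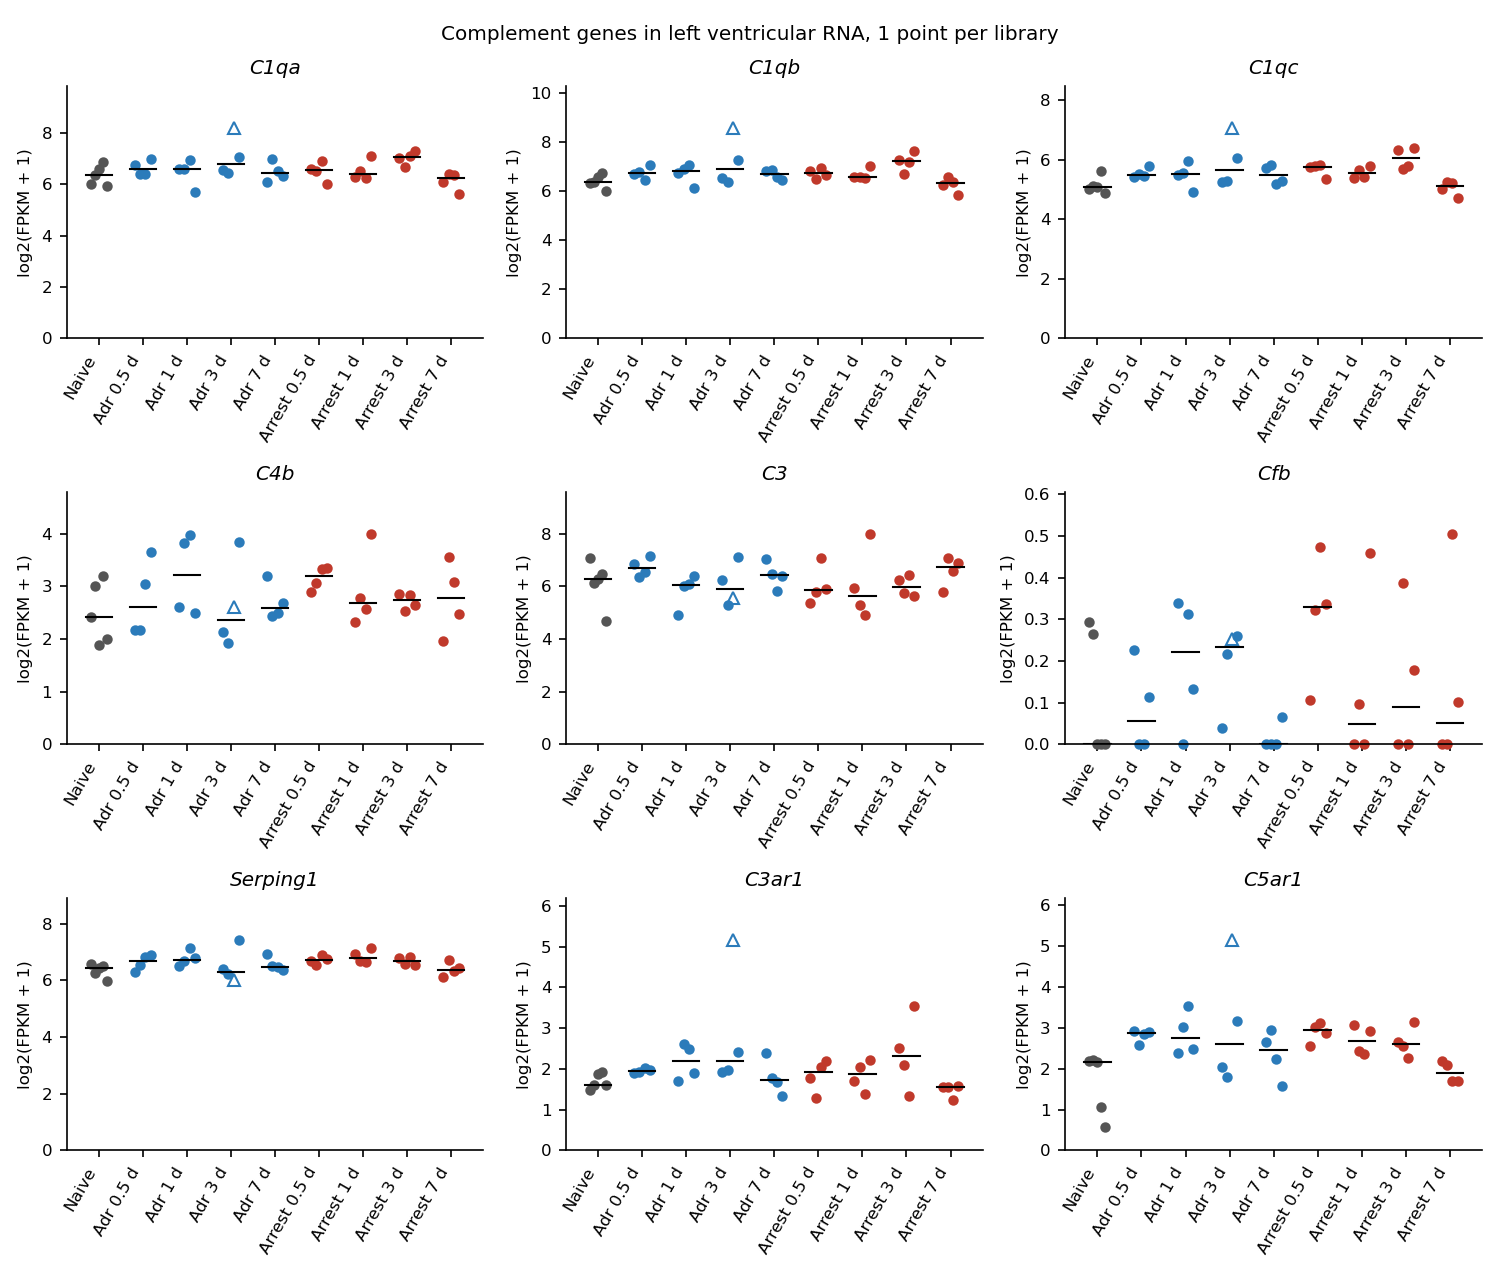
Level of each of the 9 complement genes as log2(FPKM + 1) in every library, by group. Points are libraries, horizontal lines are group medians and the open triangle is Adr 3 d replicate 3, which is the highest library for the 3 C1q genes and both receptors; the vertical scale differs between panels.

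Levels were compared by a linear model of log2(FPKM + 1) over all genes (limma), and a gene was called when its p-value, adjusted by Benjamini-Hochberg over all genes tested, was at most 0.05. Of the 9 genes, 8 passed the filter on low values (0.5 FPKM in 4 or more libraries), and Cfb did not. With all 37 libraries, 0 of the 8 were called against Naïve in any Arrest or Adr group. Of all genes tested, 3.21%, 7.11%, 0.139% and 0% were called in Arrest mice in the order of the 4 times, and 0.188%, 0.69%, 0% and 0% in Adr mice. At an unadjusted p under 0.05 stood 2, 2, 4 and 0 of the 8 genes in Arrest mice in that order, and 1, 2, 5 and 0 in Adr mice. Of the 16530 genes tested, 3002, 3592, 2269 and 852 stood there in Arrest mice, and 2312, 2430, 2295 and 1017 in Adr mice.

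With Adr 3 d replicate 3 left out, 1, 1 and 2 of the 8 genes were called higher in Arrest mice at 0.5, 1 and 3 days. In Adr mice 1 was called higher at 1 day, and none was called lower. C5ar1 was called in Arrest mice at 0.5 and 1 days and in Adr mice at 1 day, and C1qb and C1qc were called in Arrest mice at 3 days. The shares of all genes called in that fit were 5.51%, 10.4%, 1.15% and 0% in Arrest mice in the order of the times, and 1.45%, 2.54%, 0% and 0% in Adr mice. The library left out belongs to none of the groups compared in these calls. Each call was lost when only the 2 groups compared were fitted. Over all 9 groups at once, an F test called C1qc [limma adjusted p = 0.0359] and C5ar1 [limma adjusted p = 0.0479] without the library, where it called 6.28% of all genes. With all libraries it called 0 of the 8 against 3.9% of all genes. At an unadjusted p under 0.05 stood 3 of the 8 and 2870 of the 16530 genes tested. The 8 comparisons share their Naïve libraries, so they are not independent of one another. Each sample description also holds a number, which ran from 116 to 127 in Naïve. It ran from 70 to 95 in Arrest 1 d, 71 to 102 in Adr 1 d and 90 to 112 in Arrest 3 d. None of these groups overlapped Naïve, so their differences from Naïve cannot be told apart from any that go with this number. Arrest 0.5 d, at 99 to 124, overlapped Naïve.

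The 3 C1q genes lie next to each other in the deposited table, whose header names no genome build: C1qb at chr4:136607440-136613498, C1qc at chr4:136617115-136620376 and C1qa at chr4:136623228-136626114, all on the minus strand. They rose and fell together across libraries. On the log2 scale, Spearman's rho over the 37 libraries was 0.84 for C1qa with C1qb, 0.81 for C1qa with C1qc and 0.89 for C1qb with C1qc, and 0.83, 0.80 and 0.88 without Adr 3 d replicate 3. The ratio of C1qa to C1qb ranged from 0.588 to 1.10 and that of C1qc to C1qb from 0.353 to 0.608, while their sum ranged from 129.8 to 801 FPKM. Without Adr 3 d replicate 3 the highest sum was 438 FPKM.

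Promoters are shown for C1qb and C1qc because their RNA moved together and was called in the same comparison. Each is the 250 bases before the RefSeq start on GRCm38.p6, a build whose positions cannot be set beside those of the table, on the minus strand at chr4:136886201-136886450 for C1qb and chr4:136892915-136893164 for C1qc. Capitals mark a match to GAGGAA on either strand, the core bound by PU.1, a transcription factor of macrophages.
C1qb: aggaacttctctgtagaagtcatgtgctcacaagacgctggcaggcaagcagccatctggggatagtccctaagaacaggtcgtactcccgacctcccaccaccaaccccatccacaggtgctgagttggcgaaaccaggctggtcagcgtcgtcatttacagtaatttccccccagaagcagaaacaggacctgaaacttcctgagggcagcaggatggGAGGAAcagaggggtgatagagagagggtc
C1qc: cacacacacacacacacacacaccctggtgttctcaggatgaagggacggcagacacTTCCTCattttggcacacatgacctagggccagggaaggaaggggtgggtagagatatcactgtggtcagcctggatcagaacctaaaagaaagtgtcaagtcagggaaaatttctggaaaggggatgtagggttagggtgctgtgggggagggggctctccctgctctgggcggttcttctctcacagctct
The match began 30 bases before the start in C1qb and 193 bases before it in C1qc. Such a match was found in 23.4% of 32536 promoter windows of this length, so it is common. Neither window held a match, on either strand, to TTCNNNGAA (7% of windows), the STAT core, to TATAAA (12.3%) or to the NF-kB (4.6%) and ISRE (3%) motifs. The GAGGAA matches thus overlapped no other of these motifs.

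C1qc showed the clearest rise of the chains. Naïve hearts measured 31.1, 33.9, 33.4, 48.6 and 28.8 FPKM [35.1 ± 7.77, SD, n = 5]. Arrest hearts at 3 days measured 79.2, 50.6, 55.1 and 83.1 FPKM [67.0 ± 16.5, n = 4], and every one lay above every Naïve heart. At 0.5 days Arrest hearts held 52.9, 54.1, 55.6 and 40.4 FPKM, and at 1 day 40.9, 49.5, 42.0 and 54.9 FPKM, so both groups overlapped Naïve through its highest heart. By 7 days Arrest hearts measured 31.1, 36.8, 36.7 and 25.5 FPKM, of which 3 lay within the Naïve range and 1 below it.

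For C1qc, Adr hearts overlapped Naïve at every time. They measured 42.3, 44.5, 43.1 and 54.0 FPKM at 0.5 days, 43.8, 45.9, 60.7 and 29.4 FPKM at 1 day, and 51.4, 56.2, 35.7 and 38.1 FPKM at 7 days. At 3 days they measured 36.8, 37.8 and 66.0 FPKM, with 133 FPKM in replicate 3.

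At 3 days in Arrest mice C1qc was 0.90 higher than Naïve on the log2 scale, a value that hardly moved with the libraries used, while its standard error fell from 0.25 to 0.20 once Adr 3 d replicate 3 was left out [limma adjusted p = 0.104 with all libraries, 0.0194 without it]. In Adr mice at 3 days the log2 difference was 0.76 with the library and 0.38 without it [limma adjusted p = 0.191 and 0.75]. The Arrest call was lost when Naïve replicate 5 [limma adjusted p = 0.0501], Arrest 3 d replicate 1 [0.0663] or Arrest 3 d replicate 4 [0.0689] was also left out, and held without each of the other 33 libraries.

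C1qb followed the same course. Naïve hearts measured 80.0, 80.7, 93.3, 105 and 63.9 FPKM, and Arrest hearts at 3 days 151, 102, 142 and 198 FPKM, of which replicate 2 overlapped Naïve. Its log2 difference was 0.78 [limma adjusted p = 0.185 with all libraries, 0.0456 without Adr 3 d replicate 3]. This call was close to the threshold and was lost on leaving out any of 15 of the other 36 libraries, with an adjusted p of up to 0.146. Those were Naïve replicates 1, 2 and 5, Adr 0.5 d replicates 1 and 2, Adr 7 d replicates 2 and 3, Arrest 0.5 d replicate 3, Arrest 1 d replicates 1 and 2, Arrest 3 d replicates 1, 3 and 4, and Arrest 7 d replicates 1 and 3.

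C1qa was not called. Naïve hearts measured 63.4, 81.0, 95.6, 114 and 60.8 FPKM and Arrest hearts at 3 days 128, 101, 136 and 158 FPKM, with overlap through a single heart of each group. The log2 difference was 0.67 [limma adjusted p = 0.28 with all libraries, 0.146 without Adr 3 d replicate 3].

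All 3 chains stood higher at 3 than at 7 days in Arrest mice, a comparison added after these levels had been seen. The lowest 3-day heart exceeded the highest 7-day heart for each chain. The share of all genes separated in this way was not counted for this pair of groups. The log2 differences of the chains, which moved together across libraries, were 0.90 for C1qa, 0.92 for C1qb and 1.00 for C1qc. None was called [limma adjusted p = 0.503, 0.503 and 0.417 with all libraries, 0.192, 0.0951 and 0.0526 without Adr 3 d replicate 3]. Without that library, C1qb and C1qc were called when Arrest 3 d replicate 2 was also left out or with sample quality weights, and C1qc alone when Naïve replicate 4 was also left out or with a filter on a mean of 1 FPKM. In this comparison 0% of all genes were called with either set of libraries, and 3 and 5 of the 8 complement genes stood at an unadjusted p under 0.05. Of all genes tested, 1227 of 16530 stood there with all libraries and 1561 of 16413 without the library. Between 3 and 1 days, also added, 0 of the 8 were called while 0.175% of all genes were called with all libraries and 1.71% without the library. There 0 and 2 of the 8 stood at an unadjusted p under 0.05, against 2013 of 16530 and 2382 of 16413 genes.

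Macrophage markers moved with C1q. The 10 markers used, among them Adgre1, Csf1r, Mrc1 and Cd163, were all above 0 in every library. Their sum was 57.9 to 95.3 FPKM in Naïve hearts, and 88.0 to 121, 83.2 to 112, 80.7 to 213 and 48.5 to 74.5 FPKM in Arrest hearts, from the earliest to the latest time. In Adr hearts it was 73.8 to 119, 67.1 to 138, 69.7 to 326 and 58.7 to 85.5 FPKM, and at most 147 FPKM at 3 days without replicate 3. None of the 10 markers was called in Arrest mice at 3 days with either set of libraries, and their median log2 difference there was 0.54. Of 4 monocyte markers, which summed to 0.884 to 1.51 FPKM in Naïve hearts and 3.51 to 23.1 FPKM in Arrest hearts at 3 days, Chil3 was called in that comparison and at 0.5 days without Adr 3 d replicate 3. Of the 4 Arrest hearts at 3 days, replicates 1 and 4, which held the most C1qc, also had the most macrophage markers (213 and 155 FPKM) and monocyte markers (23.1 and 18.8 FPKM). Their cardiomyocyte markers summed to 6549 and 8275 FPKM, below the Naïve range of 10933 to 13004 FPKM. Replicate 1 held 266 FPKM of endothelial markers against at most 173 FPKM in Naïve hearts, and replicate 4 held 832 FPKM of fibroblast markers against at most 474 FPKM. In this comparison the median log2 difference was -0.33 for 6 cardiomyocyte markers and 0.27 for 8 fibroblast markers. The part of these cell types in the C1q difference was not tested.

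The sum of the C1q chains divided by that of the markers was 2.51 to 3.38 in Naïve hearts and 1.68 to 3.98 in Arrest hearts at 3 days, so the ranges of this ratio overlapped. It was 2.46 in Adr 3 d replicate 3 and 1.68 to 3.98 over all 37 libraries. Spearman's rho with the summed markers was 0.86 for C1qc, 0.79 for C1qb and 0.65 for C1qa over 37 libraries, and 0.84, 0.77 and 0.62 without Adr 3 d replicate 3. In whole tissue, more macrophages and more C1q RNA per macrophage cannot be told apart.

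**Figure D2:**
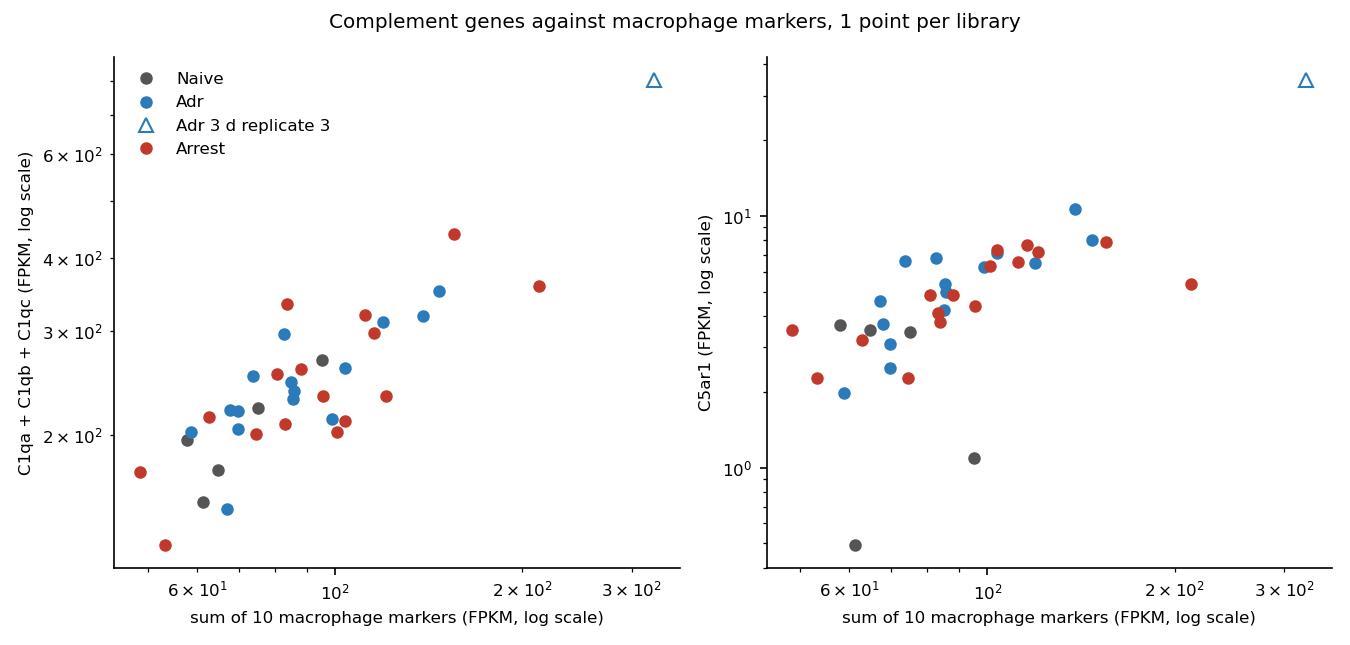
Summed FPKM of C1qa, C1qb and C1qc (left) and FPKM of C5ar1 (right) against the summed FPKM of 10 macrophage markers, 1 point per library, log axes. The open triangle, Adr 3 d replicate 3, is highest on both axes with 326 FPKM of markers and 801 FPKM of C1q, and the remaining libraries rise from lower left to upper right.

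C5ar1, the receptor for C5a, lies at chr7:15980668-15993465 on the minus strand of the table's build. Of the 8 genes it had the largest log2 difference from Naïve at 0.5 and 1 days in both arms. Naïve hearts measured 3.53, 3.67, 3.46, 1.09 and 0.492 FPKM, so replicates 4 and 5 were well below the other 3. Arrest hearts measured 4.86, 7.16, 7.66 and 6.29 FPKM at 0.5 days, 7.34, 4.38, 4.13 and 6.56 FPKM at 1 day, and 5.34, 4.85, 3.78 and 7.85 FPKM at 3 days. Every one of these 12 hearts lay above every Naïve heart. At 7 days Arrest hearts measured 3.53, 3.22, 2.27 and 2.27 FPKM, inside the Naïve range.

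Adr hearts did the same early on. They measured 6.62, 4.99, 6.26 and 6.48 FPKM at 0.5 days and 4.21, 7.11, 10.7 and 4.59 FPKM at 1 day, again above every Naïve heart. At 3 days they measured 3.08, 2.47, 34.5 and 8.04 FPKM, the third value being replicate 3, and at 7 days 5.34, 6.77, 3.73 and 1.98 FPKM. Both later groups overlapped Naïve. These levels rested on 17 to 150 fragments in Naïve hearts, 137 to 369 in Arrest hearts at 0.5 and 1 days and 159 to 442 in Adr hearts at those times.

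The log2 difference from Naïve was 1.25 ± 0.31 (SE) in Arrest mice at 0.5 days without Adr 3 d replicate 3 [limma adjusted p = 0.0171], 1.05 at 1 day [0.0301] and 1.21 in Adr mice at 1 day [0.0352]. In Adr mice at 0.5 days it was 1.17 and not called [limma adjusted p = 0.0513], and in Arrest mice at 3 days 1.01 and not called [0.096]. With all 37 libraries these differences moved by less than 0.01, the SE was 0.42, and the adjusted p-values of the 3 calls were 0.098, 0.13 and 0.16. Because 1 was added to each FPKM before the logarithm, these values understate the fold change of a gene at this level.

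Each of the 3 calls of C5ar1 was lost when Naïve replicate 5, the lowest heart, was left out, with log2 differences of 0.98 at 0.5 days and 0.78 at 1 day in Arrest mice and 0.95 in Adr mice [limma adjusted p = 0.0585, 0.104 and 0.0957]. Both 1-day calls were lost without Naïve replicate 4 [0.078 in Arrest, 0.0759 in Adr]. Leaving out a treated heart ended the call for Arrest 0.5 d replicate 2 [0.061], Arrest 1 d replicates 1 [0.105] and 4 [0.0674], and Adr 1 d replicates 2 [0.0775] and 3 [0.15]. The direction held in each case.

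Macrophage markers are given above, and C5ar1 followed them with a rho of 0.80 over 37 libraries and 0.78 without Adr 3 d replicate 3. Neutrophils also carry this receptor. The sum of 7 neutrophil markers was 0 to 9.74 FPKM in Naïve hearts, 3.60 to 32.2 FPKM in Arrest hearts at 0.5 days, 5.81 to 19.5 FPKM at 1 day and 0.777 to 8.96 FPKM in Adr hearts at 1 day. Ly6g, a defining neutrophil marker, was at 0 in all 37 libraries. In the paper, Ly6G-positive cells by flow cytometry and cells stained for myeloperoxidase were both more numerous in Arrest than in Naïve hearts at 0.5 days. The 0 of Ly6g RNA therefore does not tell whether neutrophils were present. The 5 liver markers were at 0 in every Naïve heart and summed to 0.52 to 2.76 FPKM in Arrest hearts at 1 day, where 1 of them, Ttr, was called. None of the 4 neutrophil markers that could be tested was called in these comparisons. All 4 had a positive difference in each, with a median on the log2 scale of 1.31 in Arrest mice at 0.5 days, 1.26 at 1 day and 0.30 in Adr mice at 1 day, and 3, 2 and 0 of them stood at an unadjusted p under 0.05. In both Arrest groups that median was above the difference of C5ar1 itself, and in Adr mice at 1 day it was below it. The rho of the summed neutrophil markers with C5ar1 was 0.39 over 37 libraries and 0.34 without Adr 3 d replicate 3. For the monocyte markers it was 0.56 and 0.52, and for the liver markers 0.59 and 0.68. The macrophage marker Cd163 was called in Arrest mice at 1 day, and Cd68 in Adr mice at 1 day without that library. The part of these cell types in the C5ar1 difference was not tested.

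The promoter of C5ar1 is shown because this was the gene called most often. It is read as above, on the minus strand at chr7:16259339-16259588 of GRCm38.p6, and held no match to any of the 5 motifs, so no letter is in capitals.
C5ar1: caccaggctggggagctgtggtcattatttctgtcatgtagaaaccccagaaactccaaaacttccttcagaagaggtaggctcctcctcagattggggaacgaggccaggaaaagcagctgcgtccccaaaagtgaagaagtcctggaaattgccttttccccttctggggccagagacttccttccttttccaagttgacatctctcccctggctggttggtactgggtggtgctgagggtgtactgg

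**Figure D3:**
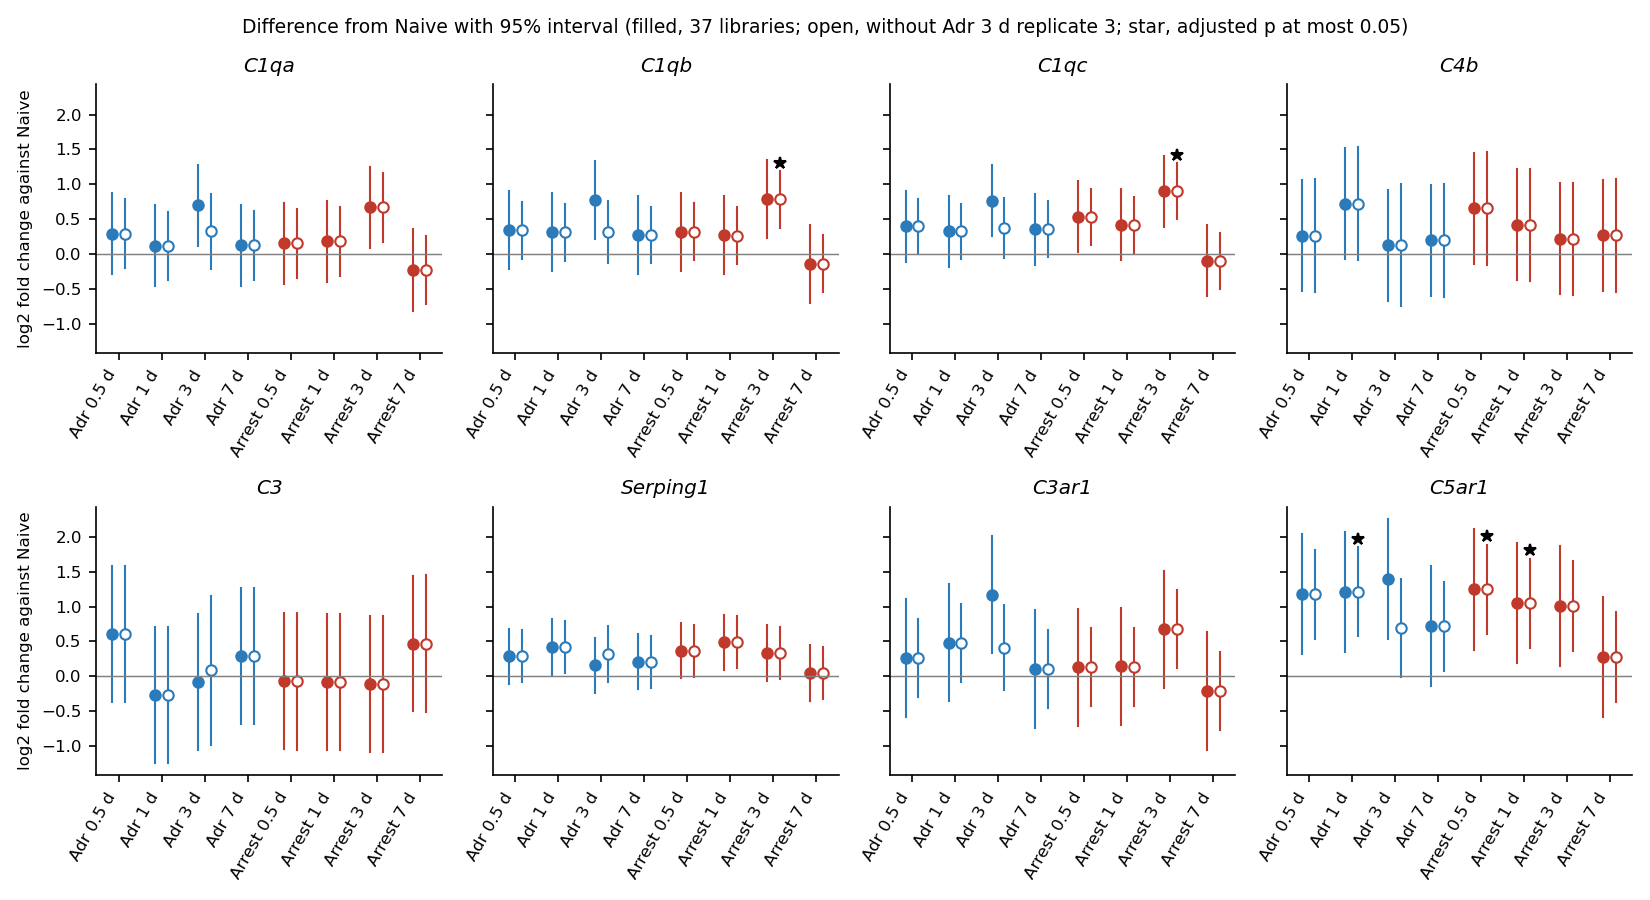
Log2 fold change against Naïve with its 95% interval for the 8 genes tested, by group, with all 37 libraries (filled) and without Adr 3 d replicate 3 (open); stars mark an adjusted p of at most 0.05. Stars stand over the open symbols of C5ar1 in Adr 1 d, Arrest 0.5 d and Arrest 1 d, and of C1qb and C1qc in Arrest 3 d, and the open intervals of those genes are the narrower.

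C3ar1, the receptor for C3a at chr6:122824097-122833120 on the minus strand, was not called with either set of libraries. Naïve hearts measured 1.77, 2.02, 2.69, 2.77 and 2.05 FPKM, and Arrest hearts at 3 days 4.72, 3.25, 1.51 and 10.6 FPKM, which overlapped them. The log2 difference was 0.67 there [limma adjusted p = 0.489 with all libraries, 0.208 without Adr 3 d replicate 3], and it was called when Arrest 3 d replicate 3, the lowest heart, was left out besides Adr 3 d replicate 3. In Adr hearts at 3 days it measured 2.79, 2.91 and 4.36 FPKM in replicates 1, 2 and 4 and 34.8 FPKM in replicate 3. The log2 difference there fell from 1.17 to 0.41 without replicate 3 [limma adjusted p = 0.211 and 0.812]. All 4 of these Adr hearts lay above every Naïve heart, the lowest narrowly. By 7 days Arrest hearts measured 1.94, 1.94, 1.36 and 1.98 FPKM.

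C3, the component on which all pathways converge, at chr17:57510970-57535136 on the minus strand, varied widely within groups, and no group stood apart from Naïve. Naïve hearts ranged from 24.4 to 133 FPKM and Adr hearts at 0.5 days, the group of the highest mean, from 80.7 to 139.7 FPKM. Arrest hearts at 1 day measured 60.3, 38.5, 29.2 and 252 FPKM, the last being the highest C3 level of the series. Its log2 differences from Naïve lay between -0.27 and 0.61, and the lowest limma adjusted p was 0.612 with all libraries and 0.572 without Adr 3 d replicate 3.

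C4b, which encodes C4, at chr17:34947354-34962856 on the minus strand, was likewise spread within groups. Naïve hearts measured 4.34, 7.01, 2.67, 8.20 and 2.98 FPKM. Arrest hearts at 0.5 days measured 6.44, 7.33, 9.03 and 9.15 FPKM, and Adr hearts at 1 day 5.05, 13.1, 14.7 and 4.63 FPKM. Its log2 difference was 0.66 in the former and 0.72 in the latter, neither called [limma adjusted p = 0.387 and 0.392 with all libraries, 0.362 and 0.352 without Adr 3 d replicate 3]. Its near copy C4a was counted at 0 to 0.273 FPKM, and how reads shared by both were assigned is not given in the sources used here.

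Serping1, which encodes C1 inhibitor and holds back C1r, C1s and the lectin pathway proteases, lies at chr2:84595731-84605788 on the minus strand. Its differences were small. Naïve hearts measured 94.0, 75.7, 86.1, 89.9 and 62.5 FPKM, and Arrest hearts at 1 day 119, 101, 99.6 and 139.8 FPKM, all above them. The log2 difference was 0.49 and not called [limma adjusted p = 0.125 with all libraries, 0.0865 without Adr 3 d replicate 3]. It was called when Adr 3 d replicate 4 was left out in place of replicate 3 [limma adjusted p = 0.0455]. That heart held 170 FPKM of Serping1, the highest of the series.

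Cfb, which supplies the catalytic subunit of the alternative convertase, lies at chr17:35075350-35081494 on the minus strand and was read at 0 in 15 of 37 libraries and reached 0.419 FPKM at most, on 0 to 18 fragments per library. Naïve hearts measured 0.226, 0.201, 0, 0 and 0 FPKM. Arrest hearts at 0.5 days, the group of the highest mean, measured 0.0758, 0.251, 0.387 and 0.264 FPKM. At so few fragments Cfb missed the filter and was not tested in the main fit. In the fit without a filter it was called in no comparison with either set of libraries. C2, its neighbour and classical pathway counterpart, averaged 1.04 FPKM.

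Separation of whole groups followed these results. Every treated heart was above every Naïve heart for C5ar1 in Arrest mice at 0.5 days, for C5ar1 and Serping1 at 1 day, for C5ar1 and C1qc at 3 days, and for 0 of the 8 genes at 7 days. Of all genes tested, 4.49%, 5.71%, 1.74% and 1.03% were separated in this direction at those times. In Adr mice it held for C5ar1 at 0.5 and 1 days, for C3ar1 at 3 days and for 0 genes at 7 days, against 3.36%, 2.51%, 1.29% and 0.938% of all genes. No gene of the 8 lay wholly below Naïve in any group.

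Read as a list, 7 of the 8 genes had a positive difference from Naïve in Arrest mice at 0.5, 1 and 3 days with medians of 0.34, 0.34 and 0.67 on the log2 scale, and 4 of 8 at 7 days with a median of -0.03. The medians over all genes tested lay between 0.01 and 0.03 in these comparisons. In Adr mice 8, 7, 7 and 8 genes were positive with medians of 0.31, 0.37, 0.73 and 0.24, of which the 3-day median became 0.32 without replicate 3, with 8 positive. The medians over all genes there lay between 0.01 and 0.04.

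The study compared Arrest with Adr mice at matched times to separate arrest from adrenaline. Its own tests, which used DESeq2, found a few pathways that differed between the arms. These chiefly concerned organization of the extracellular matrix at 0.5 and 1 day. With limma on FPKM, as used here, none of the 8 genes was called at any time. Of all genes tested, 0% were called at 0.5, 1 and 3 days and 0.00605% at 7 days with all libraries, and 0% at each time without Adr 3 d replicate 3. At an unadjusted p under 0.05 stood 0 of the 32 tests with all libraries. Of all 16530 genes tested, 638, 1090, 888 and 416 stood there in the order of the times. Without Adr 3 d replicate 3 it was 762, 1388, 928 and 515 of 16413. Without the library, C1qc stood there at 3 days with a log2 difference of 0.53 [limma adjusted p = 0.874] and at 7 days with -0.46 [limma adjusted p = 1]. The interval of the difference shows what these groups could resolve. For C5ar1 at 0.5 days it ran from -0.61 to 0.75 and for C1qc at 3 days from 0.07 to 0.98 without the library, and for C1qc at 3 days from -0.40 to 0.68 with it.

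Within an arm, 1 day was compared with 7 days. In Arrest mice 7 of the 8 genes were higher at 1 day with a median of 0.41 on the log2 scale, and 0 were called while 1.89% of all genes were called with all libraries and 4.02% without Adr 3 d replicate 3. Serping1 stood 0.44 higher [limma adjusted p = 0.296 with all libraries, 0.216 without], C5ar1 0.77 higher [0.439 and 0.211] and C1qc 0.52 higher [0.36 and 0.168]. In Adr mice 5 of 8 were higher with a median of 0.12, and 0 were called, against 0.0423% and 0.384% of all genes. Unadjusted p was under 0.05 for 1 gene in Arrest mice with all libraries, for 3 without the library, and for 0 in Adr mice either way. Over all genes tested it was so for 2456 of 16530 and 2869 of 16413 in Arrest mice, and for 1600 and 1899 in Adr mice.

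The rest of the cascade was present unevenly. Among regulators, Clu, which encodes the soluble inhibitor clusterin, averaged 130 FPKM, and the membrane inhibitor Cd59a averaged 52.0 FPKM. Partners of C1q were lower, with C1s1 at 10.4 FPKM and C1ra at 8.58 FPKM. Of the lectin pathway, Colec11 averaged 14.3 FPKM and Fcna 4.54 FPKM, and of the alternative pathway, Cfp, which encodes properdin, averaged 9.32 FPKM and Cfd 5.39 FPKM. Of the 7 terminal components only C7 [4.57 FPKM] and C8g [1.57 FPKM] reached a mean of 1 FPKM, while C9 and C8a were at 0 in all 37 libraries.

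**Figure D4:**
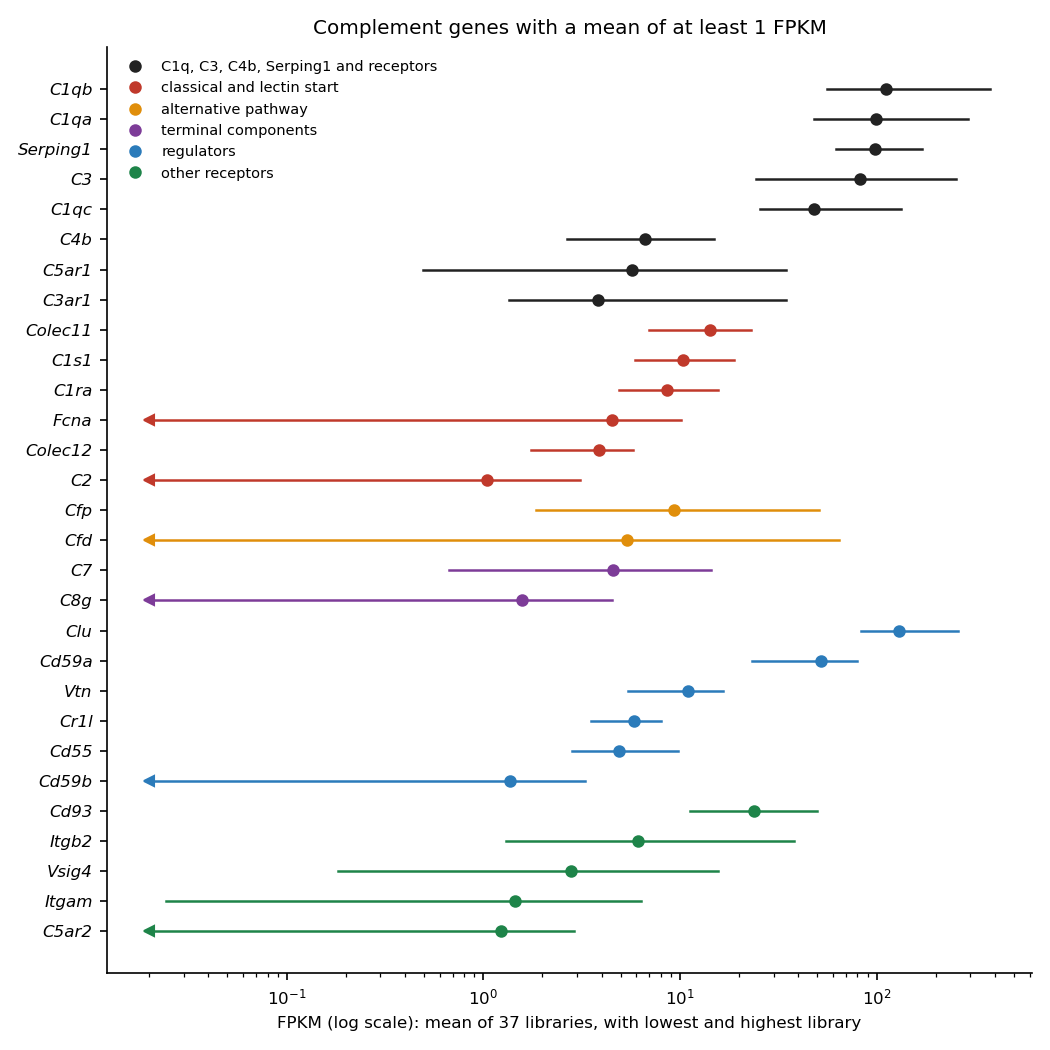
Mean FPKM over 37 libraries (point, log axis) with the lowest and highest library (line) of the complement genes read here with a mean of at least 1 FPKM, coloured by role. An arrow at the left marks a gene read at 0 in 1 library or more; Clu, C1qb, C1qa and Serping1 have the highest means.

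With all 37 libraries, 1 of 6 tested receptors other than C3ar1 and C5ar1 rose in Arrest mice at 0.5 days, and 1 rose and 1 fell at 1 day. In Adr mice 1 of the 6 rose at 1 day. The riser was C5ar2 each time, the second C5a receptor and the neighbour of C5ar1 on the chromosome. It measured 0 to 0.94 FPKM in Naïve hearts, 1.05 to 1.69 FPKM in Arrest hearts at 0.5 days and 0.497 to 2.72 FPKM at 1 day. Its log2 differences were 0.86 and 0.77 in those Arrest groups and 0.92 in Adr mice at 1 day [limma adjusted p = 0.0338, 0.0341 and 0.0479].

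Cd93, a surface protein of endothelial and myeloid cells once described as a C1q receptor, was the gene that fell. It measured 24.4 to 32.4 FPKM in Naïve hearts and 11.2 to 19.9 FPKM in Arrest hearts at 1 day, without overlap, with a log2 difference of -0.79 [limma adjusted p = 0.00555]. The sum of 5 endothelial markers was 159 to 173 FPKM in Naïve hearts and 124 to 187 FPKM in those Arrest hearts, and 2 of the 5, Cdh5 and Kdr, were called lower in the same comparison. Their part in the Cd93 difference was not tested. C5ar2 and Cd93 were also called by the F test over the 9 groups with all libraries [limma adjusted p = 0.0421 and 0.00566]. Of the 7 tested genes of the classical and lectin start, the 2 of the alternative pathway, the 2 terminal components and the 7 regulators, none was called with all libraries in any comparison.

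Leaving out Adr 3 d replicate 3 kept those calls against Naïve and added others, while C5ar2 was no longer called by the F test [limma adjusted p = 0.0541]. Cfp rose in Arrest mice at 0.5 days [log2 difference 1.07, limma adjusted p = 0.0244] and 3 days [1.38, 0.0153] and in Adr mice at 1 day [1.08, 0.0397]. Fcna, a ficolin of macrophages, rose in Arrest mice at 3 days from 0 to 3.16 FPKM in Naïve hearts to 3.07 to 10.2 FPKM [1.49, 0.0486]. Itgb2 and Itgam, whose products form complement receptor 3, rose at 0.5 days in Arrest mice [1.23, 0.0408 and 0.91, 0.0349], and Cd59a rose at 1 day [0.54, 0.0313]. Cd93 also fell in Arrest mice at 0.5 days [-0.48, 0.0352] and in Adr mice at 0.5 days [-0.63, 0.0177] and 1 day [-0.54, 0.0343]. In Arrest mice it was lower at 1 than at 7 days [-0.64, 0.0106] and higher at 3 than at 1 day [0.73, 0.00639]. Without the library the receptor tests numbered 5, because Itgax then missed the filter.

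Genes whose levels most resembled each complement gene were ranked by Spearman's rho over the 37 libraries among 11542 genes of at least 1 FPKM. These values are descriptions, since all points share libraries. For C1qb the nearest were the lysozyme gene Lyz2 [rho 0.84], the macrophage receptor gene Csf1r [0.82] and Cfp [0.81]. For C1qc they were Mrc1 [0.85], Arpc1b [0.84] and Fcgr3 [0.83], and for C1qa Sod3 [0.75], Lgals1 [0.74] and Csf1r [0.72]. C5ar1 was nearest to Arpc1b [0.84], Pirb [0.83] and Lgals3 [0.82], and C3ar1 to Lyz2 [0.76], Cd68 [0.72] and Gusb [0.69].

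C3 had other neighbours, Upk3b [0.83], Lrrn4 [0.80] and Gpc3 [0.80], of which Upk3b and Lrrn4 are known from mesothelium, the cell layer that covers the heart. Serping1 was nearest to Dcn [0.80], the decorin gene of fibroblasts, Gpx3 [0.78] and Lyve1 [0.77], and C4b to Lrp1 [0.73], Igfbp4 [0.66] and Ecm1 [0.66]. C3 shared little of the course of C1q, with a rho of 0.06 to 0.16 with the 3 chains over 37 libraries and 0.12 to 0.22 without Adr 3 d replicate 3. Without Adr 3 d replicate 3 the nearest gene was the same for 7 of the 8 complement genes, and for Serping1 it became Gpx3 with a rho of 0.82.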

How the data were processed

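LV RNA-seq of 37 mice was analysed in the 9 groups given by the sample labels. Libraries were sequenced by Novogene and reads were aligned with HISAT2. The authors deposited 1 table of FPKM for 56748 genes with lengths, symbols and positions, and their own tests used DESeq2. Build, annotation, counter and strand setting are not given in the sources used here, so overlapping genes and near copies are uncertain. The study's methods exclude 1 Adr sample of 3 days without naming it, so all 4 were kept and all tests were repeated without replicate 3, which stood apart. FPKM times gene length gave whole fragments in 100% of values within 0.1 of a fragment, which gave the depths; 0 pairs of libraries were copies and 0 sample columns were unused.

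Values were rescaled by median ratios (factor 1.013 in every library) and fitted as log2(FPKM + 1) with limma 3.58.1 in R 4.3.3 (1 mean per group, eBayes with trend). Genes reaching 0.5 FPKM in 4 or more libraries entered, 16530 in all and 16413 without Adr 3 d replicate 3. Adjustment by Benjamini-Hochberg covered all genes of a comparison, and 0.05 was the threshold. The fit was first tested on simulated data with the same dispersion for every gene and no outlying library. That test does not bear on calls that turned on Adr 3 d replicate 3. Replicates are separate mice. The genes named are the 9 complement genes, other complement genes past the threshold (at most 5 a comparison) or of at least 1 FPKM, and the 3 genes nearest to each of the 9. One listed gene is not reported here. The genes and lists were chosen with earlier results of these data known. Same-numbered libraries of different groups did not deviate together (median r 0.0017 over 144 pairs), so no block was used. Figures were drawn with matplotlib.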

Additional observations from a re-analysis of the deposited data

Results flagged for a closer look

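Within groups of 4 or 5 hearts, 81 sets of values of the 9 genes were checked for a heart far from the others by Dixon's gap test, which by chance picks about 1 set in 20. It picked 8. In Arrest 1 d replicate 4 the test picked 3 genes at once, C3 at 252 FPKM against 29.2 to 60.3 FPKM in the other hearts, C4b at 14.9 FPKM against 3.99 to 5.83 FPKM, and C1qb at 128 FPKM against 91.6 to 93.5 FPKM. In the Naïve group C1qc reached 48.6 FPKM in replicate 4 against 28.8 to 33.9 FPKM.

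C3ar1 was 34.8 FPKM in Adr 3 d replicate 3 against 2.79 to 4.36 FPKM, and Serping1 was 170 FPKM in Adr 3 d replicate 4 against 64.2 to 82.3 FPKM. C3ar1 was low in Arrest 7 d replicate 3 at 1.36 FPKM against 1.94 to 1.98 FPKM. Cfb in Adr 7 d was 0.0468 FPKM in replicate 4 and 0 in the others, a difference of 2 fragments. The cause of none of these was tested.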

How the results depend on the processing

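With all 37 libraries, 0 of 8 genes were called in each comparison, and 12 alternatives (11 for the F test) kept 0 except for 1 in Arrest 1 d against 7 d and 1 in the F test with sample quality weights (C1qc), and 1 in Arrest 1 d against 7 d when only the 2 groups compared were fitted (C5ar1). Leaving out each library gave 0 to 1 calls in Arrest 0.5 d, Arrest 1 d and Adr 1 d, 0 to 2 in Arrest 3 d and the F test, and 0 elsewhere. Those calls came without Adr 3 d replicate 3, and without Adr 3 d replicate 4 for Serping1 in Arrest 1 d.

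Without Adr 3 d replicate 3 throughout, alternatives chosen after seeing the data, 1, 1, 2, 1 and 2 genes were called in Arrest 0.5 d, Arrest 1 d, Arrest 3 d, Adr 1 d and the F test. Leaving out a further library gave 0 to 1, 0 to 2, 0 to 2, 0 to 1 and 0 to 2. With the replicate block all became 0. Only Naïve has a replicate 5, so the block takes that heart out of the differences. With it the log2 differences were 0.9804 for C5ar1 in Arrest 0.5 d and 0.8374 for C1qc in Arrest 3 d. On leaving out Naïve replicate 5 they were 0.9799 and 0.8379. With only the 2 groups compared, which has no F test, the counts were also 0. In Arrest 1 d and Adr 1 d the count was 0 without a filter, with the number in the sample description as a covariate, with the gene length trend removed and with sample quality weights. In Arrest 3 d it was 0 with that covariate and with weights, and 1 with quantile scaling, scaling by fragments, no filter and the length trend removed. In the F test it was 1 with quantile scaling, a pseudocount of 0.1 or sex as a covariate, and 0 with scaling by fragments, no filter, the covariate of sample number or the length trend removed. The cause was not tested. The sample numbers of Arrest 1 d, Adr 1 d and Arrest 3 d did not overlap those of Naïve, so number and group cannot be told apart there. Weights gave 3 in the F test. C5ar1 in Adr 0.5 d was called with quantile scaling, a pseudocount of 0.1 and a filter on a mean of 1 FPKM, and on leaving out Naïve replicate 2 or 3, Adr 1 d replicate 3, Adr 3 d replicate 4, Adr 7 d replicate 4 or Arrest 3 d replicate 4. In Arrest 1 d against 7 d, weights called C1qc and the fit of 2 groups C5ar1. None of the named differences changed direction under any alternative. C5ar1 in Arrest 0.5 d kept its call in 10 of 12 alternatives [adjusted p 0.0132 to 0.0764], C1qc in Arrest 3 d in 8 [0.0154 to 0.269], C5ar1 in Arrest 1 d [0.0229 to 0.248] and Adr 1 d [0.025 to 0.202] in 6, and C1qb in Arrest 3 d in 4 [0.0372 to 0.305]. In each count 1 alternative, FPKM as deposited, differed from the main fit only by the common factor of 1.013. It kept each of these calls and is hardly a separate check. Over all genes, the block called 280 in place of 531 in Arrest 0.5 d, 768 in place of 1176 in Arrest 1 d and 49 in place of 114 in Adr 1 d. Over the 12 alternatives these counts ran from 237 to 725, 34 to 1947 and 0 to 233, from 0 to 28 in Arrest 3 d (23 as reported) and from 72 to 1815 in Arrest 1 d against 7 d (312), the fewest with the sample number as covariate and the most with weights, except for Arrest 3 d, where a pseudocount of 0.1 gave the most. With 4 or 5 hearts a group, 17 fragments of C5ar1 in a Naïve library and 0 to 18 of Cfb limit the precision of low values.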
